A study of Mus musculus with 6 samples.

Results

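The 9 genes described here encode germ cell RNA-binding regulators: Dazl, Boll, Ddx4, Dnd1, Nanos2, Nanos3, Rbm46, Elavl2 and Pum2. They were taken by gene symbol, through their Ensembl identifiers, from a table of 48709 genes. All 9 were found, and 8 of them were among the 20167 genes that passed the expression filter, the exception being Nanos2. The study sequenced polyadenylated RNA of ovaries from CD1 mouse embryos at 13.5 days post coitum (dpc), in pools of gonads. Dams had been gavaged from 10.5 dpc with acetaminophen (APAP, 30 mg/kg per day) together with ibuprofen (IBU, 15 mg/kg per day), or with the ethanol diluent in the control group. There were 3 control and 3 APAP+IBU libraries, and the comparison asked which transcripts differed in ovaries exposed to both analgesics in utero. Exposed samples carry IBU alone in their titles and both drugs in their exposure label. Dams were wild type, and nothing in the data separates one drug from the other.

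Between arrival in the gonad and meiosis, germ cells rely heavily on control of mRNA translation and decay. DAZL binds U-rich sites in 3′ UTRs and gives the cells competence for sexual differentiation and meiosis, while DDX4 (VASA), a DEAD-box helicase of the germ granule, marks germ cells of both sexes at this stage. DND1 and the NANOS proteins protect early germ cells and bring mRNAs to the CCR4-NOT deadenylase, and Pumilio proteins, partners of NANOS, bind their own 3′ UTR element.

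Total counts ran from 37811968 to 48954631 per library. Of 11 markers of pre-granulosa and other ovarian somatic cells, 10 were above 1 CPM (the count scaled to library size) in every library, and their summed level was 1484 to 1724 CPM in controls and 1554 to 1903 CPM after APAP+IBU. All 14 germ cell markers other than the 9 genes were above 1 CPM in every library. Spermatid markers, which an embryonic ovary should lack, summed to 47.3 to 158 CPM in controls and 6.11 to 10.2 CPM in exposed libraries, and neuronal markers to 53.0 to 85.1 and 23.3 to 40.0 CPM. Of the 14 spermatid markers, 13 were lower in all exposed libraries than in all controls, among them Prm1, a protamine gene, at 5.71 to 35.9 CPM in controls and 0.197 to 0.789 CPM after exposure. Markers of fetal male germ cells, Sertoli cells and the Y chromosome summed to 39.2, 47.8 and 24.6 CPM in control replicates 1, 2 and 3. In exposed libraries they summed to 22.9 to 25.4 CPM. Erythroid markers summed to 5903 to 13719 CPM in controls and 2497 to 8651 CPM in exposed libraries. Liver markers summed to 195 to 567 CPM in replicates 1 and 2 of both groups, but to 2001 CPM in the control and 3256 CPM in the exposed pool numbered 3. The part of these differences in the values below was not tested except where stated. In bulk RNA, fewer germ cells and less RNA per germ cell cannot be told apart.

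Corrected for exon length, Dazl had the highest median over the 6 libraries, 135 RPKM (CPM per kilobase of exon, range 96.4 to 155), above 98.8% of the tested genes. Ddx4 followed with 77.9 RPKM (63.2 to 88.9), then Pum2 with 34.5 RPKM (22.1 to 40.1) and Rbm46 with 15.0 RPKM (9.88 to 18.3). The ranges of these 4 genes did not touch each other, so their order among themselves held in every library. Rbm46 also lay above Elavl2 throughout, but its range overlapped that of Dnd1, which at 14.8 RPKM exceeded Rbm46 (9.88 RPKM) in control replicate 1. Elavl2 with 7.44 RPKM and Dnd1 with 6.84 RPKM overlapped, as did Dnd1 with Boll (3.07 RPKM) and Boll with Nanos3 (2.55 RPKM). Nanos2, the regulator of the male fetal germline, stood apart at 0.137 RPKM (0.0833 to 0.192).

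**Figure D1:**
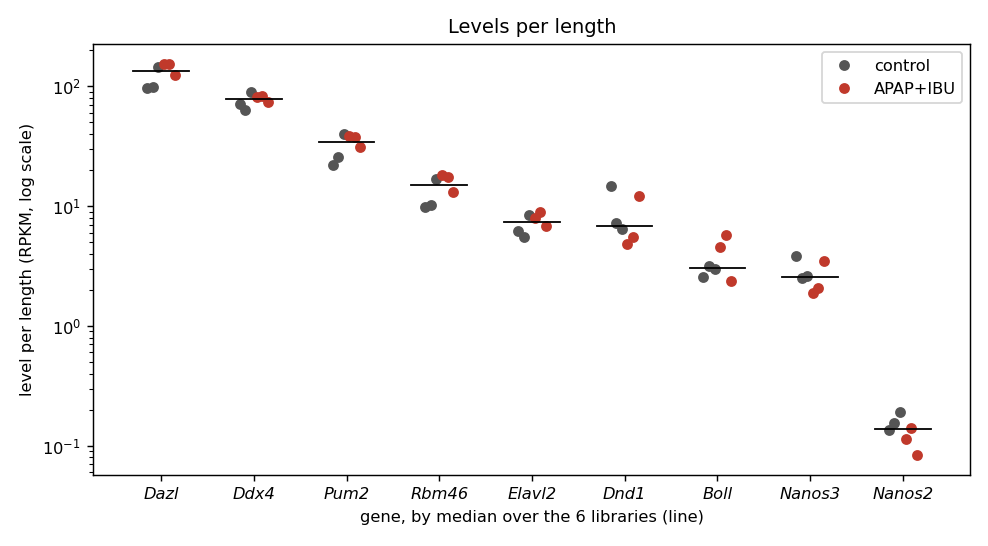
Level per exon length (RPKM, log axis) of the 9 genes in each control (grey) and APAP+IBU (red) library, with the median over the 6 libraries as a line. Dazl, Ddx4 and Pum2 form separate steps with medians of 135, 77.9 and 34.5 RPKM, the points of Rbm46 and Dnd1 overlap, and Nanos2 lies at 0.137 RPKM.

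Dazl (ENSMUSG00000010592) occupies bases 50279395 to 50293636 of chromosome 17 (GRCm38, minus strand). Its level was 368, 379.9 and 553 CPM in control replicates 1, 2 and 3 and 587, 592 and 476 CPM in APAP+IBU replicates 1, 2 and 3. Control replicate 3 lay beside the exposed libraries and above APAP+IBU replicate 3, so the groups overlapped. The group means were 434 ± 104 CPM (SD, n = 3) and 552 ± 65.3 CPM (SD, n = 3). The log2 fold change was 0.35 (standard error 0.19, 95% confidence interval -0.09 to 0.79, adjusted p = 0.692 in edgeR's quasi-likelihood test). An exact permutation test (two-sided) returned p = 0.2, and 0.1 is the smallest value that 3 libraries against 3 allow.

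Boll (ENSMUSG00000025977, chromosome 1, 55248658 to 55363469, minus strand) belongs to the DAZ family too and is known for its role in male meiosis. It had 9.02, 11.0 and 10.5 CPM in the controls and 15.9, 20.3 and 8.41 CPM in the exposed libraries. APAP+IBU replicates 1 and 2 were the highest of all and APAP+IBU replicate 3 the lowest, while the controls were close together. This was the largest log2 fold change of the 8 tested genes, 0.55 (standard error 0.30, 95% confidence interval -0.16 to 1.25), with an adjusted p of 0.692 and an exact permutation p of 0.4. Boll is also a testis germ cell gene, and 13 of the 14 spermatid markers were higher in all 3 controls than in all 3 exposed libraries. The part of such RNA in the values of Boll was not tested.

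The helicase gene Ddx4 (ENSMUSG00000021758, chromosome 13, 112598333 to 112652475, minus strand) varied least of the tested genes. Its level was 213, 191 and 268 CPM in the controls and 246, 251 and 224 CPM in the exposed libraries, so the controls enclosed the exposed values. Means were 224 ± 39.9 and 240.2 ± 14.2 CPM (SD, n = 3 each). The log2 fold change was 0.10 (standard error 0.15, 95% confidence interval -0.25 to 0.45, adjusted p = 0.822, exact permutation p = 0.6). Without control replicate 2 it was -0.00071.

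Dnd1 and Nanos3, which act early to keep germ cells alive, had a nearly identical order of libraries. Dnd1 (ENSMUSG00000044595, chromosome 18, 36763671 to 36766214, minus strand) had 35.7, 17.5 and 15.5 CPM in the controls and 11.6, 13.4 and 29.3 CPM in the exposed libraries. Nanos3 (ENSMUSG00000056155, chromosome 8, 84173731 to 84185217, minus strand) had 3.57, 2.30 and 2.42 CPM in the controls and 1.75, 1.92 and 3.20 CPM in the exposed libraries. Both were highest in control replicate 1, next highest in APAP+IBU replicate 3 and lowest in APAP+IBU replicates 1 and 2. Neither pair of groups was separate.

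For Dnd1 the log2 fold change was -0.34 (standard error 0.43, 95% confidence interval -1.33 to 0.65, adjusted p = 0.792), and for Nanos3 it was -0.27 (standard error 0.33, 95% confidence interval -1.02 to 0.48, adjusted p = 0.784). The exact permutation p was 0.5 for each. Without control replicate 1, the value of Dnd1 turned to 0.13 and that of Nanos3 shrank to -0.05. Exons of Dnd1 share 140 bases with Wdr55 on the opposite strand, and the strand setting of the counting is not given in the sources used here. Only 8, 9 and 13 reads of Nanos2 (ENSMUSG00000051965, chromosome 7, 18987400 to 18988962, plus strand) were counted in the controls and 9, 10 and 5 in the exposed libraries, or 0.130 to 0.299 CPM. An antisense gene, Gm45058, overlaps 766 bases of its exons, so no direction is read from these counts.

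Rbm46, whose protein is needed for meiosis and binds mRNAs for decay (ENSMUSG00000033882, chromosome 3, 82837228 to 82876483, minus strand), followed Dazl closely. It had 24.7, 25.5 and 41.9 CPM in the controls and 45.7, 43.7 and 33.1 CPM in the exposed libraries. Again control replicate 3 sat among the exposed libraries. The log2 fold change was 0.41 (standard error 0.24, 95% confidence interval -0.13 to 0.96, adjusted p = 0.692, exact permutation p = 0.2).

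Elavl2 (ENSMUSG00000008489, chromosome 4, 91250763 to 91400785, minus strand), a binder of AU-rich elements in germ cells and neurons, had 51.8, 45.9 and 70.1 CPM in the controls and 66.6, 73.7 and 57.0 CPM in the exposed libraries. Pum2 (ENSMUSG00000020594, chromosome 12, 8674134 to 8752581, plus strand), a Pumilio protein gene expressed well beyond the germline, had 160.5, 188 and 291 CPM in the controls and 278, 273 and 228 CPM in the exposed libraries. In both, control replicate 3 was within or above the exposed range and the groups overlapped. Their log2 fold changes were 0.23 (standard error 0.18, 95% confidence interval -0.19 to 0.66) for Elavl2 and 0.28 (standard error 0.22, 95% confidence interval -0.23 to 0.80) for Pum2, each with an adjusted p of 0.710 and exact permutation p-values of 0.3 and 0.4. The summed neuronal markers, which bear on Elavl2, were lower in all 3 exposed libraries than in all 3 controls. Their part in the values of Elavl2 was not tested.

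**Figure D2:**
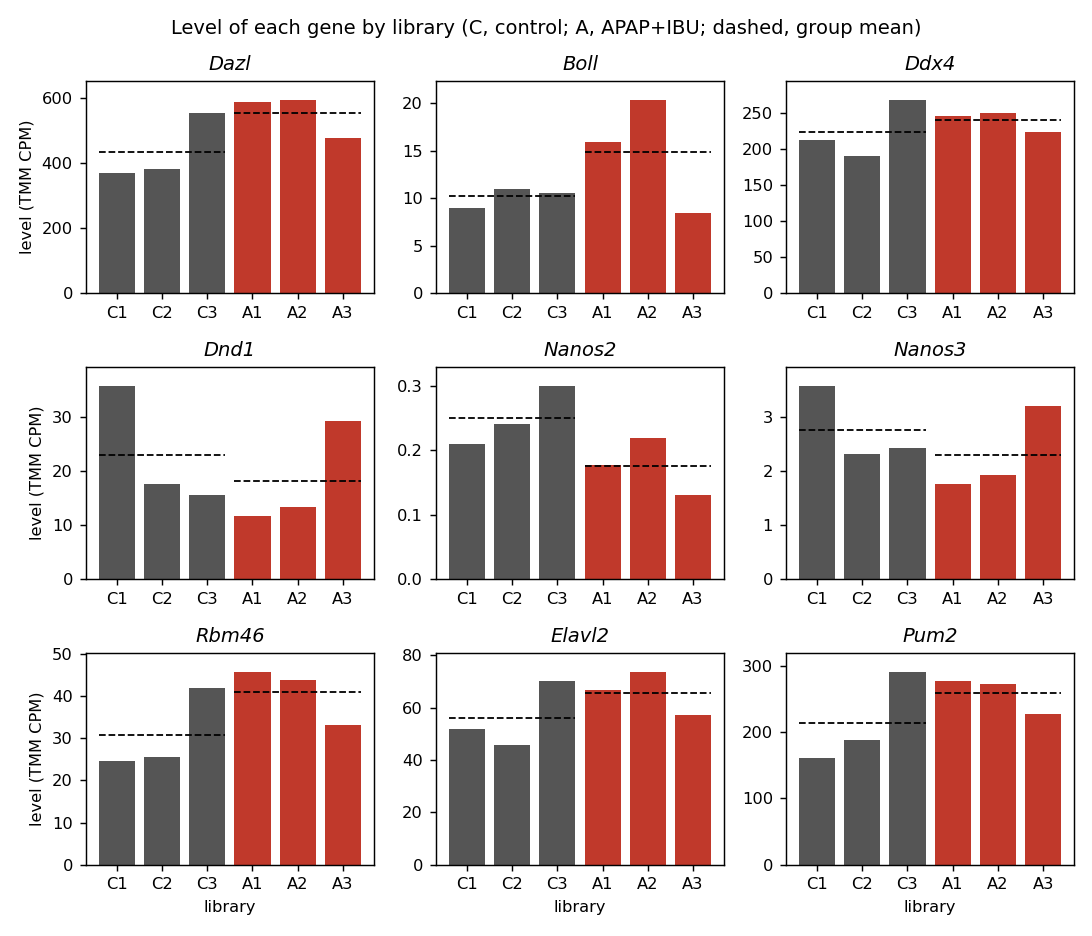
Level (CPM after TMM scaling, axes from 0) of each gene in control (C1 to C3, grey) and APAP+IBU (A1 to A3, red) libraries, with the group mean as a dashed line. In Dazl, Ddx4, Rbm46, Elavl2 and Pum2 the bars of C1 and C2 are the lowest, and in Dnd1 and Nanos3 those of A1 and A2 are.

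Over all 6 libraries, then, 0 of the 8 tested genes passed an adjusted p of 0.05 in edgeR's quasi-likelihood test, and 0 passed an unadjusted p of 0.05. DESeq2, which tested all 9, also called 0 of them, and none had an unadjusted p under 0.05. In the whole table, edgeR called 0 of 20167 genes (0%) at an adjusted p of 0.05 and 1254 (6.22%) at an unadjusted p of 0.05, 3% higher and 3.21% lower. None of the 9 genes had groups that did not overlap, against 10.7% of all tested genes, in 4.78% with all exposed libraries above all controls and in 5.92% below. The confidence intervals allow increases of up to 0.79 on the log2 scale for Dazl and 0.45 for Ddx4, and decreases down to -1.33 for Dnd1.

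Most of the 9 genes shared 1 of 2 patterns over the libraries. In 5 of them (Dazl, Ddx4, Rbm46, Elavl2 and Pum2) the lowest libraries were control replicates 1 and 2, and the highest 3 were control replicate 3 and APAP+IBU replicates 1 and 2. In 2 (Dnd1 and Nanos3) the lowest were APAP+IBU replicates 1 and 2. Boll and Nanos2 followed neither pattern. The first pattern was not particular to these genes, since Ddx3x, which most cells express, had it too. The share of all tested genes with either pattern is not given here. As a description over 6 libraries that share depth and composition, the Pearson correlation of log2 CPM was 0.997 between Dazl and Rbm46, 0.967 between Dazl and Pum2, 0.944 between Dazl and Elavl2 and 0.886 between Dazl and Ddx4. It was 0.981 between Dnd1 and Nanos3, and -0.74 between Dazl and Dnd1.

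Dnd1 and Nanos3 also ran with the 14 other germ cell markers, a list with pluripotency genes such as Pou5f1 and Sall4. The mean log2 CPM of that list was 5.59, 5.02 and 5.18 in the controls and 4.64, 4.80 and 5.36 in the exposed libraries. The correlation with this mean was 0.987 for Nanos3 and 0.944 for Dnd1, but -0.34 for Ddx4 and -0.68 for Dazl. Relative to the list, Nanos3 stayed within 0.22 on the log2 scale over the 6 libraries, although its own log2 CPM covered 1.01. Relative to the same list Dazl varied more than by itself, by 1.62 against 0.68. Over the list, Dazl was at 2.94, 3.55 and 3.93 in the controls and 4.55, 4.41 and 3.53 in the exposed libraries, and the groups overlapped (exact permutation p = 0.3).

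**Figure D3:**
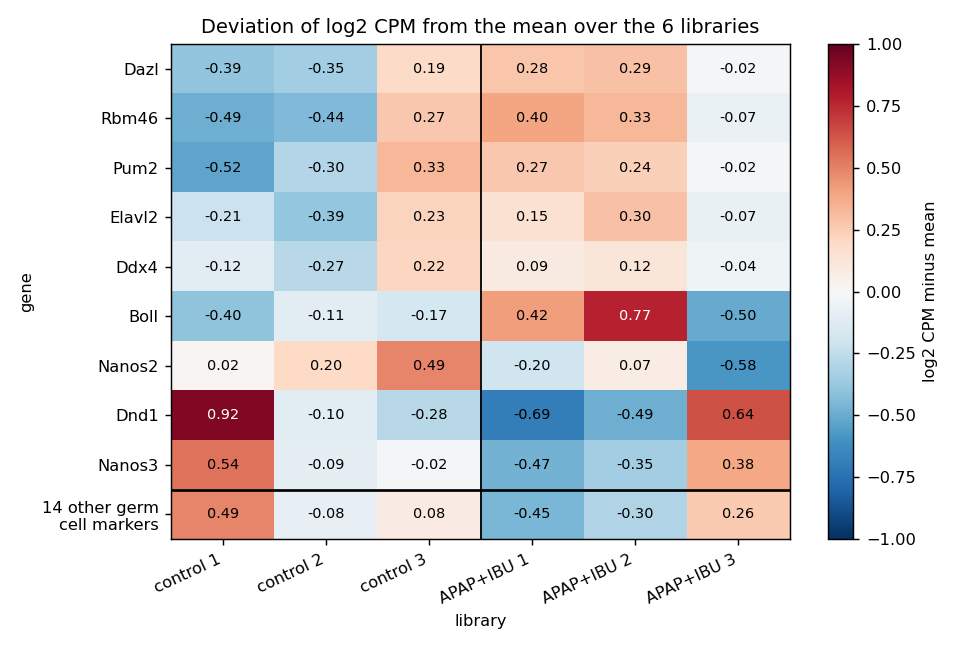
Deviation of log2 CPM from the mean over the 6 libraries for each gene, with the mean of 14 other germ cell markers in the bottom row (red, higher; blue, lower). Dazl, Rbm46, Pum2, Elavl2 and Ddx4 are low in control replicates 1 and 2, while Dnd1, Nanos3 and the marker list are high in control replicate 1 and APAP+IBU replicate 3.

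Each gene was also compared in replicates 1 and 2 of each group, a choice made with the values of replicate 3 known. The level in APAP+IBU replicate 3 was 0.861 times that in control replicate 3 for Dazl, 0.836 for Ddx4, 0.790 for Rbm46, 0.797 for Boll, 0.813 for Elavl2 and 0.782 for Pum2, but 1.89 times for Dnd1 and 1.32 times for Nanos3. In each of these 8 genes replicate 3 differed between the groups in the opposite direction to replicates 1 and 2. Leaving it out therefore enlarges the difference, and the adjusted p-values below do not take that choice into account. With replicates 1 and 2 only, Dazl rose by 0.68 on the log2 scale (standard error 0.09, adjusted p = 0.00632 in edgeR's quasi-likelihood test). Rbm46 rose by 0.85 (standard error 0.11, adjusted p = 0.00623), Boll by 0.87 (standard error 0.18, adjusted p = 0.0158) and Pum2 by 0.68 (standard error 0.11, adjusted p = 0.00721). Elavl2 rose by 0.54 (adjusted p = 0.0125) and Ddx4 by 0.32 (adjusted p = 0.0429). Dnd1 fell by 1.07 on the log2 scale (standard error 0.30, adjusted p = 0.0386), while Nanos3, at -0.65 (standard error 0.31), had an adjusted p of 0.160. The value of Dnd1 leans on control replicate 1, at 35.7 CPM, since control replicate 2 had 17.5 CPM and the exposed libraries 11.6 and 13.4 CPM. With replicate 3 kept and only control replicate 1 left out, its log2 fold change was 0.13.

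Thus 7 of 8 genes were called in these 4 libraries, 6 higher and 1 lower, where 27.2% of all 20633 tested genes were called, 14.2% higher and 12.9% lower. In 6 of the 8 both exposed libraries were above both controls, as in 33.3% of tested genes, and in 2 they were below, as in 35.5%. These 4 libraries are part of the same 6, and leaving out replicate 3 was chosen with its values known.

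Fold changes in these libraries also moved with base composition. In replicates 1 and 2, the median log2 fold change of all genes fell from 0.62 in the lowest decile of exonic GC content to -0.44 in the highest, and over 6 libraries from 0.30 to -0.18. Dazl, with 37.3% GC, lies in the lowest decile, as do Rbm46 (40.3%), Boll (41.0%) and Elavl2 (41.1%). Ddx4 (42.2%) and Pum2 (42.9%) lie in the next, and Dnd1 (55.6%) and Nanos3 (56.4%) in the ninth, where the median in replicates 1 and 2 was -0.29. The 6 genes with positive fold changes are thus poorer in GC than the 2 with negative ones.

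**Figure D4:**
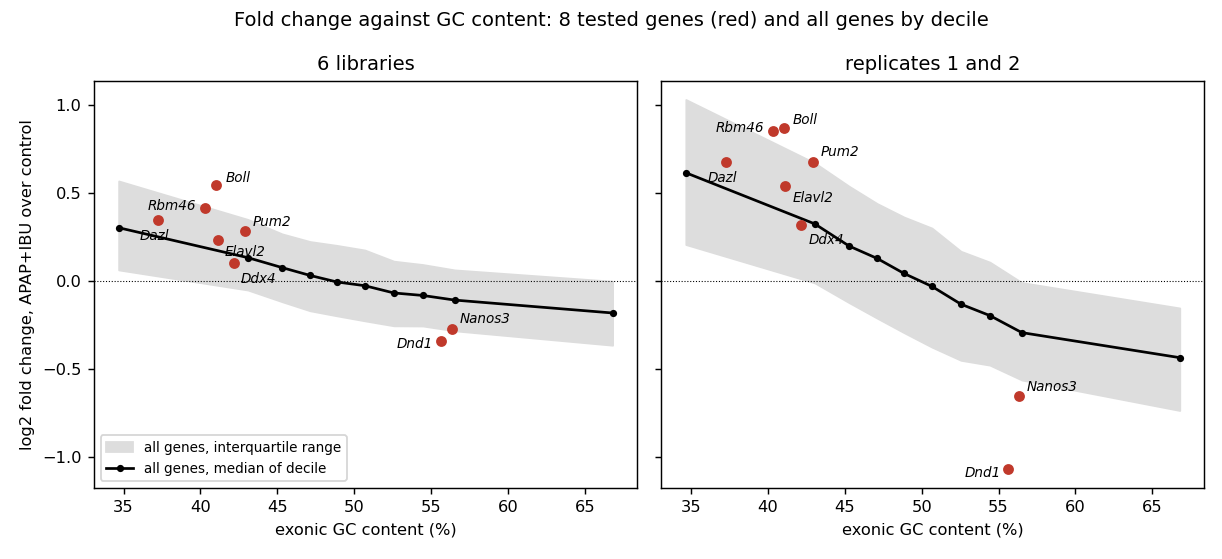
Log2 fold change of the 8 tested genes (red) against exonic GC content, over 6 libraries (left) and replicates 1 and 2 (right), with the median (line) and interquartile range (shading) of all genes by decile of GC content. Dazl, Elavl2 and Ddx4 lie within the shaded band at their GC content in both panels, whereas Dnd1 lies below it. The band is drawn between decile midpoints. By the values of their own decile, Rbm46 and Boll also lie within the interquartile range in both fits.

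With exon length and GC content corrected for in each library, 1 of the 8 genes, Rbm46, was called in replicates 1 and 2, at 0.40 on the log2 scale (standard error 0.10, adjusted p = 0.0320), against 14.1% of all genes, 5.72% higher and 8.38% lower. Dazl was then at -0.08 (95% confidence interval -0.32 to 0.16), Ddx4 at -0.02 (-0.27 to 0.23) and Elavl2 at -0.05 (-0.35 to 0.25), so their direction turned. Boll at 0.45 and Pum2 at 0.24 stayed positive with adjusted p-values of 0.129 and 0.109. Dnd1 stayed negative at -0.72 (95% confidence interval -1.31 to -0.12, adjusted p = 0.0992), whereas Nanos3 was at -0.08. Over 6 libraries the same correction left Dazl, Ddx4 and Elavl2 at -0.05 each, Rbm46 at 0.20, Boll at 0.30, Pum2 at 0.10, Dnd1 at -0.20 and Nanos3 at -0.06, and called none of the 8.

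**Figure D5:**
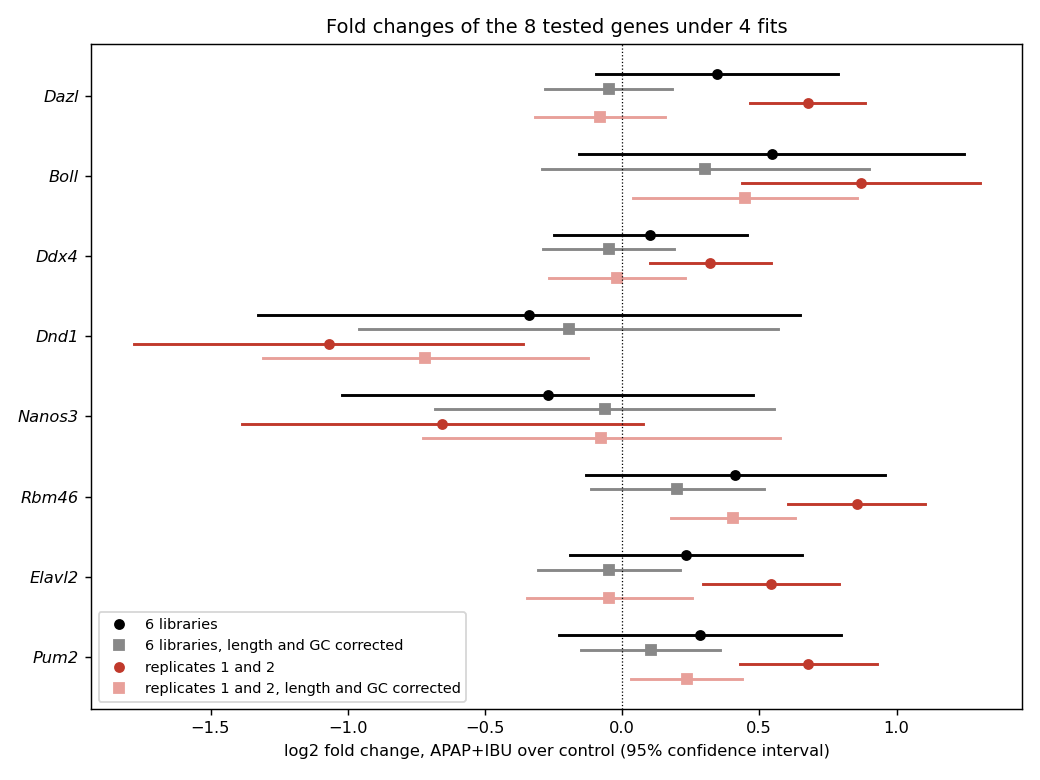
Log2 fold change (APAP+IBU over control) of the 8 tested genes with 95% confidence intervals, for 6 libraries (black), 6 libraries corrected for length and GC content (grey), replicates 1 and 2 (red) and replicates 1 and 2 corrected (pink). The red points of Dazl, Ddx4 and Elavl2 lie to the right of 0 and the corrected points slightly to its left.

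Promoters and 3′ UTRs were set beside these patterns. RefSeq promoter windows (GRCm38.p6, 250 bases before to 50 after a start site) were found for 8 of the 9 genes. They were searched on both strands for the E-box CACGTG, the E2F element TTCCCGC and the letters CNCCTCAG, known from STRA8-bound promoters. Of 32851 windows, 7.15% held the E-box, 4.60% the E2F element and 7.94% the STRA8 motif, and no match overlapped another in the sequences shown. E-boxes and E2F elements are the sites through which the repressor PRC1.6 recognises germline gene promoters. The 250 bases upstream of the start site are shown for Dazl, Ddx4 and Rbm46, which moved together, and for Nanos3, which did not move with them. Capitals mark a match.
Dazl, chr17:50293621-50293870, minus strand: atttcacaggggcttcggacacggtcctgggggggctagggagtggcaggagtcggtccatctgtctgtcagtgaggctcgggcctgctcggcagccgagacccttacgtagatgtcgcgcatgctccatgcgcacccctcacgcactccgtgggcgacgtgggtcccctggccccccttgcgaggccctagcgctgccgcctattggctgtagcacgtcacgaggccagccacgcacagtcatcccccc
Ddx4, chr13:112652311-112652560, minus strand: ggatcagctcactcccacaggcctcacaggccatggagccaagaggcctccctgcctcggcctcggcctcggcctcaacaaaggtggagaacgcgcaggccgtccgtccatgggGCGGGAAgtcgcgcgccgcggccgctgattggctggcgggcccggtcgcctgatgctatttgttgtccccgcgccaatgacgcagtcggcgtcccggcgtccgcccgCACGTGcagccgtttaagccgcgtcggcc
Rbm46, chr3:82876484-82876733, minus strand: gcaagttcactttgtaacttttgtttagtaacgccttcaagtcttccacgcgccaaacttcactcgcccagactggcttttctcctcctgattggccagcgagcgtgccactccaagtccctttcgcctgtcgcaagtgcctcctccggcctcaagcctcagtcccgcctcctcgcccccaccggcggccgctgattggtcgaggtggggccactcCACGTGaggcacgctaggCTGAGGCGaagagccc
Nanos3, chr8:84176553-84176802, minus strand: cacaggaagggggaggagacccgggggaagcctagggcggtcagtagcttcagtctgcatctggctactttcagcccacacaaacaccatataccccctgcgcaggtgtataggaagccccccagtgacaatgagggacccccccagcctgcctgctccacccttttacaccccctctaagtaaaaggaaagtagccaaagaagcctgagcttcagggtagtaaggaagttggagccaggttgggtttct

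Ddx4 held an E-box and an E2F element and Rbm46 an E-box followed by the STRA8 motif, whereas Dazl held the STRA8 motif only, within the bases after its start site. The 300-base windows of Ddx4, Dazl and Rbm46 held 38, 28 and 25 CpG dinucleotides, against a median of 7 over all windows, and that of Nanos3 held 3. In Boll, 1 window held an E-box and the other an E2F element, 1 window of Pum2 held 3 E2F elements, and no match was found in the windows of Elavl2 and Nanos2. These matches describe letters in a window and not sites of binding.

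The 3′ UTRs of GENCODE M21 were searched on the sense strand for TTTGTTT, a U-rich element of the kind that DAZL binds, and for the Pumilio element TGTANATA. The first was found in 6 of the 9 genes and the other in Elavl2 and Pum2. The matches are shown for Dazl, Ddx4 and Rbm46, the genes of the promoters above, and the Pumilio elements for Elavl2 and Pum2, the only genes that held one. Capitals mark the element, and positions are on GRCm38.
Dazl, chr17:50280527-50280555, minus strand: ctaggtataatTTTGTTTaaagaatccaa
Ddx4, chr13:112598571-112598599, minus strand: tgtgatgtgctTTTGTTTaattattgggt
Rbm46, chr3:82838091-82838119, minus strand: taagatgaacgTTTGTTTgaaattaatat
Elavl2, chr4:91251942-91251971, minus strand: gctttgtgtgaTGTAAATAagaccttgtgt
Elavl2, chr4:91251734-91251763, minus strand: ctaattctgtcTGTAGATAgtctagcttca
Elavl2, chr4:91251069-91251098, minus strand: aataaaatacaTGTATATAtttaaaaaaaa
Pum2, chr12:8750154-8750183, plus strand: gtttatagagaTGTATATAgaattatagtt
Pum2, chr12:8750407-8750436, plus strand: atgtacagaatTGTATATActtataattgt

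Dazl, Ddx4 and Rbm46 each held 1 U-rich match, in 3′ UTRs of 1854, 612 and 646 bases. Among 3′ UTRs of tested genes of like length (0.8 to 1.25 times as long) such a match stood in 53.3%, 21.6% and 22.6%. Dnd1 held 2 in 360 bases, where 13.5% of like 3′ UTRs held any. Elavl2 held 3 Pumilio elements and Pum2 held 2, and 40.2% and 43.8% of like 3′ UTRs held any. No match of either element was found in Nanos2, Nanos3 or Boll. The U-rich element stood also in Elavl2 (1 match) and Pum2 (2 matches), as in 64.6% and 70.4% of 3′ UTRs of like length and 39.2% of all those of tested genes.

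Paralogs were read beside the genes themselves. Of 7 paralogs (Nanos1, Elavl1, Elavl3, Elavl4, Rbm47, A1cf and Ddx3x), none was called over 6 libraries, and their median log2 fold change was 0.09, beside -0.0047 over all tested genes. Elavl1, the ubiquitous relative of Elavl2, had the smallest p of the list, with 165, 162 and 166 CPM in the controls and 149, 158 and 144 CPM in the exposed libraries. All its exposed libraries were below all controls, as in 5.92% of tested genes, but the log2 fold change was -0.13 (standard error 0.11, adjusted p = 0.721). Ddx3x, a DEAD-box relative of Ddx4 expressed in most cells, had the Dazl pattern, with 451, 425 and 747 CPM in the controls and 639, 618 and 576 CPM in the exposed libraries. The other log2 fold changes were -0.14 for Nanos1, -0.03 for Elavl3, 0.09 for Elavl4 and 0.16 for Rbm47. A1cf, a relative of Rbm46 that liver cells express, was at 0.75 (standard error 1.08). Its highest levels, 2.00 and 3.36 CPM, were in replicate 3 of either group, the libraries with the most liver marker RNA. In replicates 1 and 2, 1 of the 7 paralogs, Ddx3x, was called higher and 0 lower, against 14.2% and 12.9% of all genes. After correction for length and GC content 0 were called higher and 1, Elavl1, lower, against 5.72% and 8.38%.

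The machinery of deadenylation and mRNA decay, with the CCR4-NOT complex to which DND1 and the NANOS proteins bring mRNAs, was measured too. The list held 21 genes, of the CCR4-NOT, PAN and decapping complexes and other decay factors such as Parn. Of these, 14 had positive and 7 negative fold changes over 6 libraries, none was called, and the median was 0.14. Patl1, a decapping activator, had both the smallest p and the highest log2 fold change, 0.43 (standard error 0.20, adjusted p = 0.692), with 51.9, 60.3 and 90.5 CPM in the controls and 91.2, 97.5 and 85.2 CPM in the exposed libraries. Parn, a poly(A) ribonuclease, had the lowest, -0.16 (adjusted p = 0.699), with all exposed libraries below all controls, as in 5.92% of tested genes. In replicates 1 and 2, 10 of the 21 were called higher and 0 lower, against 14.2% and 12.9% of all genes. After correction for length and GC content 1 was called higher and 2 lower, against 5.72% and 8.38%.

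Among 32 other RNA-binding and translation regulators of germ cells, 20 had positive and 12 negative fold changes over 6 libraries, with a median of 0.10 and none called. Fmr1, a translational repressor, had the smallest p, with 183, 189 and 295 CPM in the controls and 403, 424 and 253 CPM in the exposed libraries (log2 fold change 0.69, standard error 0.25, adjusted p = 0.692). Cpeb4, which controls cytoplasmic polyadenylation, had the highest value, 0.72 (standard error 0.30), and Lin28a, which blocks let-7 maturation, the lowest, -0.38 (standard error 0.17), each with an adjusted p of 0.692. In replicates 1 and 2, 13 of the 32 were called higher and 2 lower (14.2% and 12.9% of all genes), and after the correction 7 and 1 (5.72% and 8.38% of all genes).

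Of 14 mRNAs known as bound or regulated by the 9 proteins, none was called over 6 libraries and the median was 0.07. Cdkn1b, which encodes the cell cycle inhibitor p27 and is a known target that DND1 protects, had the smallest p. Its level was 97.8, 101 and 105 CPM in the controls and 159, 155 and 119 CPM in the exposed libraries, all exposed libraries being higher than all controls, as in 4.78% of tested genes. The log2 fold change was 0.51 (standard error 0.14, adjusted p = 0.551), and 0.40 (adjusted p = 0.0201) in replicates 1 and 2 after correction for length and GC content. Sycp3, a synaptonemal complex gene whose translation DAZL promotes, had the highest value, 0.63 (standard error 0.32), with 120.1, 156 and 117 CPM in the controls and 223, 279.7 and 106 CPM in the exposed libraries. Stra8, the gatekeeper of meiosis, had the lowest, -0.42 (standard error 0.25), with 333, 319 and 208 CPM against 212, 274 and 156 CPM. In Sycp3 as in Boll, APAP+IBU replicates 1 and 2 were the highest and APAP+IBU replicate 3 the lowest. In replicates 1 and 2, 5 of the 14 mRNAs were called higher and 3 lower (14.2% and 12.9% of all genes). After the correction 2 were called higher, among them Cdkn1b, and 2 lower (5.72% and 8.38% of all genes). The germ cell marker list, which shares Sall4 and Sox2 with these mRNAs, differed in direction from most of the 9 genes. Over 6 libraries 13 of its 14 genes had negative fold changes, with a median of -0.41 and none called, and in replicates 1 and 2 8 were called lower (12.9% of all genes) and 4 after the correction (8.38% of all genes).

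By the rule of the highest correlation of log2 CPM over 6 libraries among 10979 genes of at least 10 CPM, Dazl was most like Rasa1 (0.9995), 4932438A13Rik (0.998) and Atp13a3 (0.998), and Ddx4 was most like Pcgf3 (0.989), Jmjd4 (0.988) and Gin1 (0.985). These are the highest of many correlations over 6 libraries, and no shared function is drawn from them.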

How the data were processed

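Ovarian RNA (13.5 dpc, 3 control and 3 APAP+IBU pools) was sequenced with a stranded mRNA kit. The authors mapped the reads to mm10 with TopHat2 2.0.14 and Bowtie2 2.1.0 per the submitters' processing notes, counted them on Ensembl release 86 genes with HTSeq 0.6.1 and deposited raw counts. Groups came from the exposure label and replicate numbers from the titles.

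The counts were fitted in edgeR 4.0.16 under R 4.3.3, using TMM scaling, its expression filter, the quasi-likelihood test over all 20167 tested genes and Benjamini-Hochberg adjustment, called at 0.05. Levels are TMM-scaled CPM, and log2 CPM used a prior count of 1. GENCODE M21 gave positions, exon lengths and GC content (Ensembl 96, GRCm38). It is later than the authors' annotation. Of the tested genes, 20103 had length and GC values. The length and GC correction was a loess fit of span 0.3 per library. Promoter sequences came from RefSeq. Exact permutation tests were two-sided. The code was also run on simulated counts with large changes and the same spread for all genes. That run does not measure power or error rates in these data. Alternatives included DESeq2 1.42.0, other scalings and filters, a replicate block and leaving out libraries.

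The 9 genes and all lists were chosen with earlier results of these data known. Named genes are the 9, the paralogs (a further one is not reported here), the genes of each list with the smallest p and the highest and lowest fold change, Stra8 and Sycp3, and the 3 genes most correlated with Dazl and Ddx4. Nothing says that the pools shared litters, so p-values measure the spread between these pools. Same-group libraries were no duplicates, since they differed beyond counting noise (chi-square per degree of freedom 17.2 to 143). Of the list symbols, 2 were not matched.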

Additional observations from a re-analysis of the deposited data

How the results depend on the processing

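Other scalings, filters and DESeq2 on all 6 libraries called none of the 9 genes and kept the direction of the 8 tested ones. Correction for length and GC content turned Dazl, Ddx4 and Elavl2 to -0.048, -0.049 and -0.048 on the log2 scale. In replicates 1 and 2 it gave -0.079, -0.018 and -0.047 for them and 0.40 for Rbm46, the 1 gene still called. Replicates 1 and 2 alone called 7, with 0.68 for Dazl, 0.32 for Ddx4, -1.07 for Dnd1, 0.85 for Rbm46, 0.87 for Boll, 0.54 for Elavl2 and 0.68 for Pum2. DESeq2 on these 4 libraries also called 7, at 0.67, 0.32, -1.07, 0.85, 0.87, 0.54 and 0.67 in the same order. The cause was not tested beyond these refits.

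Leaving out 1 library called none of the 9 genes. The log2 fold change then ran from 0.24 to 0.56 for Dazl, from -0.00071 (without control replicate 2) to 0.25 for Ddx4, from -0.90 to 0.13 (without control replicate 1) for Dnd1, from -0.61 to -0.05 for Nanos3, from 0.28 to 0.70 for Rbm46, from 0.24 to 0.80 for Boll, from 0.11 to 0.43 for Elavl2 and from 0.11 to 0.57 for Pum2.

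Over the whole table, 0 genes were called, against 235 with DESeq2, 120 without an expression filter, 5607 in replicates 1 and 2, 2910 in these after the correction and 5717 with DESeq2 on them. Leaving out 1 library gave 0 to 1064 genes, the highest without control replicate 3. With the replicate number as a block 2 genes were called, and 49 with the block and the correction, where Dazl was -0.048, Ddx4 -0.045 and Elavl2 -0.045. Deviations of same-numbered libraries correlated at -0.07, -0.02 and -0.04, and the block changed no call among the 9 genes. These correlations cannot show whether same-numbered pools came from a shared experiment, and liver markers were highest in replicate 3 of both groups. Whether the numbers pair the libraries was therefore not settled.

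With 3 libraries per group and the spread seen here, the 95% confidence intervals of the 8 tested genes were 0.70 to 1.98 wide on the log2 scale. Nanos2, with 5 to 13 reads per library, did not pass the expression filter. Without the filter its log2 fold change was -0.49 (adjusted p = 0.760 in edgeR), and in DESeq2 -0.50 (adjusted p = 0.927). No direction is read from these values, given the few reads and the antisense gene over its exons.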

Other observations

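Within each library, the ratio of Dazl to Ddx4 (log2 of the CPM ratio) was 0.79, 0.99 and 1.05 in the controls. In the exposed libraries it was 1.26, 1.24 and 1.09, each in the order of the replicate numbers. All exposed libraries were above all controls, with a difference in means of 0.25, although neither gene by itself separated the groups. The exact permutation p was 0.1, the smallest possible, and 0.6 after Benjamini-Hochberg adjustment over the 6 ratios computed, which were chosen after the levels had been seen. In the other 5 ratios (Dazl to Dnd1, Dazl to Boll, Ddx4 to Dnd1, Nanos3 to Dnd1 and Rbm46 to Dazl) the groups overlapped. Dazl is poorer in GC than Ddx4, and after the length and GC correction over 6 libraries both had a log2 fold change of -0.05. The ratio itself was not computed after the correction, and the part of base composition in it was not tested.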
